A study of Mus musculus with 9 samples.

Results

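The genes described here are 35 interferon-stimulated genes, which cells switch on when interferon reaches them. They were taken from the deposited gene table by symbol, 35 of its 55851 genes, and all 35 passed the filter on low values that left 17716 genes for testing. The libraries hold RNA of total lung cells from female C57BL/6J mice. DJ-1 KO OVA is DJ-1 knockout mice challenged with ovalbumin, an egg-white protein used to model allergic airway inflammation (libraries DJ1_KO_OVA_263, DJ1_KO_OVA_266 and DJ1_KO_OVA_267). WT OVA is wild-type mice challenged with ovalbumin (replicates 5, 6 and 9), and WT PBS is wild-type mice given phosphate-buffered saline instead (replicates 1, 2 and 3). The time label is 7 weeks for all 9 libraries. There is no saline-challenged knockout group among them, so the knockout without challenge is not measured here, and the labels do not say how the allele was made. Nothing in the labels ties a library to a single animal, so p-values measure the spread between libraries, which may be technical.

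Interferons are secreted proteins that warn tissue of viral and other infection. Type I interferon signals through the kinases JAK1 and TYK2 to a complex that holds STAT2 and IRF9 and binds the interferon-stimulated response element (ISRE), whereas interferon-gamma signals through JAK1 and JAK2 to factors that bind the gamma-activated sequence (GAS). The genes they induce code for sensors of foreign RNA and DNA, proteins that block viral replication, GTPases that act on vacuoles holding pathogens, and parts of the antigen presentation machinery. In the lung, epithelial cells, macrophages, neutrophils and plasmacytoid dendritic cells make or answer interferon.

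The promoters of the members were read from RefSeq (GRCm38.p6), 250 bases before to 50 bases after each start, and 27 of the 35 members matched. The core of the ISRE, GAAA followed by any 2 bases and another GAAA, was found on either strand in 16 of those 27 members (59.3%), against 3.99% of 27025 genes. The letters TTCNNNGAA, the core of the GAS, were found in 8 of 27 members (29.6%), against 9.55% of those genes. In 1 promoter the matches to the ISRE and GAS letters overlapped each other. A match describes the letters and is not evidence of binding. The 5 promoters below are shown because Stat2, Ifit3, Gbp7 and Ddx58 are the 4 members with the ISRE letters and the smallest p between the challenged groups, while Gbp7 and Irgm1 stand for the GTPase family, in which each of the 6 members matched to RefSeq held the ISRE letters in at least 1 promoter. They lie at chr10:128270248-128270547 on the plus strand, chr19:34583279-34583578 on the plus strand, chr4:40239776-40240075 on the minus strand, chr3:142530086-142530385 on the plus strand and chr11:48871371-48871670 on the minus strand. Each is written 5′ to 3′ along its gene, and capitals mark the ISRE letters, read on the minus strand of the gene where they begin with TTTC.
Stat2: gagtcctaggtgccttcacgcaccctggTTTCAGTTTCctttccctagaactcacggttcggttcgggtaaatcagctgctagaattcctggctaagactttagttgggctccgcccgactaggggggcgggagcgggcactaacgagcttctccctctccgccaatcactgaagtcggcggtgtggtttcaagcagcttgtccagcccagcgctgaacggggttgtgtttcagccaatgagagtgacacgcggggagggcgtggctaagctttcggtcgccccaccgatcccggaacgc
Ifit3: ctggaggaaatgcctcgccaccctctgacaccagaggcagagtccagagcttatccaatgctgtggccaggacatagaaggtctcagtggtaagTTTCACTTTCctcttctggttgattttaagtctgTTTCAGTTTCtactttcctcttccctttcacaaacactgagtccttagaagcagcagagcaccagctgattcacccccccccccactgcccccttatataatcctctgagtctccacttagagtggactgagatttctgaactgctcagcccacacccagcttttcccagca
Ddx58: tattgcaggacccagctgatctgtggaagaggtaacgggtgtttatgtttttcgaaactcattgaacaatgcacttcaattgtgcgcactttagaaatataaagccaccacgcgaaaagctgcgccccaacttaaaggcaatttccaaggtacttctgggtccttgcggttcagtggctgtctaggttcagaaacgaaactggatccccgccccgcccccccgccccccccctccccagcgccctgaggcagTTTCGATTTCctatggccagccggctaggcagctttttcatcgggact
Gbp7: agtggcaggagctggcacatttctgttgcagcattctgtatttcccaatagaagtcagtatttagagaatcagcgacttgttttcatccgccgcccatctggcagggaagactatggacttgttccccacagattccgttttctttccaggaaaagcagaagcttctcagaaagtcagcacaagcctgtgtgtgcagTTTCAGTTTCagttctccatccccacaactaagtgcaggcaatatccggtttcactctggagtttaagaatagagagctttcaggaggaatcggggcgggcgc
Irgm1: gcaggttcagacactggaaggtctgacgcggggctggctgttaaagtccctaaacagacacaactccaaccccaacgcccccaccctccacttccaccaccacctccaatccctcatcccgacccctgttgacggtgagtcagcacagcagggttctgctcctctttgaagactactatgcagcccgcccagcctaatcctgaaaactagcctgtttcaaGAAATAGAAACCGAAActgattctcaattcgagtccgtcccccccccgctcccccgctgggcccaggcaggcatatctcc
Counted from the RefSeq start, the Stat2 match lay at -222 to -213, far from the start, and the Gbp7 match lay at -53 to -44. Ifit3 carried a pair of matches, at -156 to -147 and -122 to -113. Irgm1 also carried 2, which overlap each other, at -30 to -21 and -24 to -15. The Ddx58 match began after the start, at 3 to 12.

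The 9 libraries held 20812192 to 29080130 reads, recovered from the deposited FPKM (reads scaled to gene length and to a size per library). In them, 12636 to 12983 genes per library reached 1 FPKM. The size behind the FPKM was not the read total. Divided by the recovered reads, that size was 1.215, 0.983 and 1.026 in DJ-1 KO OVA. It was 0.9224, 0.9786 and 0.8903 in WT OVA and 1.011, 0.9563 and 1.057 in WT PBS. A larger ratio lowers every FPKM of its library, and its part in the members' differences was not tested. Park7, which codes for DJ-1, was at 3.96, 7.29 and 3.98 FPKM in DJ-1 KO OVA, against 57.9, 53.1 and 60.5 FPKM in WT OVA and 49.6, 53.8 and 36.7 FPKM in WT PBS, so the genotype labels matched the libraries; this gene does not check the ovalbumin and saline labels. DJ1_KO_OVA_266 stood apart from the other two knockout libraries in several cell type markers. Summed over 9 neutrophil markers its FPKM was 4424, beside 1429 in DJ1_KO_OVA_263 and 1481 in DJ1_KO_OVA_267, and summed over 8 endothelial markers it was 178, beside 23.8 and 57.8. DJ1_KO_OVA_263 stood apart in T cell markers, 9 of which summed to 538 FPKM, beside 152 in DJ1_KO_OVA_266 and 173 in DJ1_KO_OVA_267. Calls of members are given with and without single libraries where these change them. Markers of alveolar type 2 cells, the surfactant-making cells of the lung, were abundant throughout, with 7 of them summing to 6445 to 13998 FPKM in DJ-1 KO OVA, 32778 to 41717 FPKM in WT OVA and 25282 to 42218 FPKM in WT PBS. Each knockout library was below all 6 wild-type libraries in this sum, and its part in the results was not tested.

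The members spanned a wide range of levels in FPKM. Bst2, which codes for tetherin, a membrane protein that holds budding virions on the cell, was the most abundant, with a mean of 124 FPKM over the 9 libraries, followed by Isg15, which codes for a ubiquitin-like modifier, at 107 FPKM. The spread of these 2 over libraries (66.2 to 165.5 FPKM and 36.8 to 171 FPKM) overlapped, so their order is not firm. Irf1 at 39.2 FPKM, Oas1a at 27.9 FPKM, Isg20 at 26.3 FPKM, Tap1 at 21.5 FPKM, Irf7 at 21.0 FPKM and Gbp2 at 19.4 FPKM came next, with ranges that also overlapped. The lowest members were Ifi44 at 0.394 FPKM and Mx2 at 0.654 FPKM. Ifi44 rested on 38 to 82 reads per library and Mx2 on 29 to 91 reads, so counting error alone is large for both. Mx1 and Mx2, which code for dynamin-like GTPases against viruses, are annotated in the file as polymorphic pseudogenes, and C57BL/6 mice are known to carry defective alleles.

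**Figure D1:**
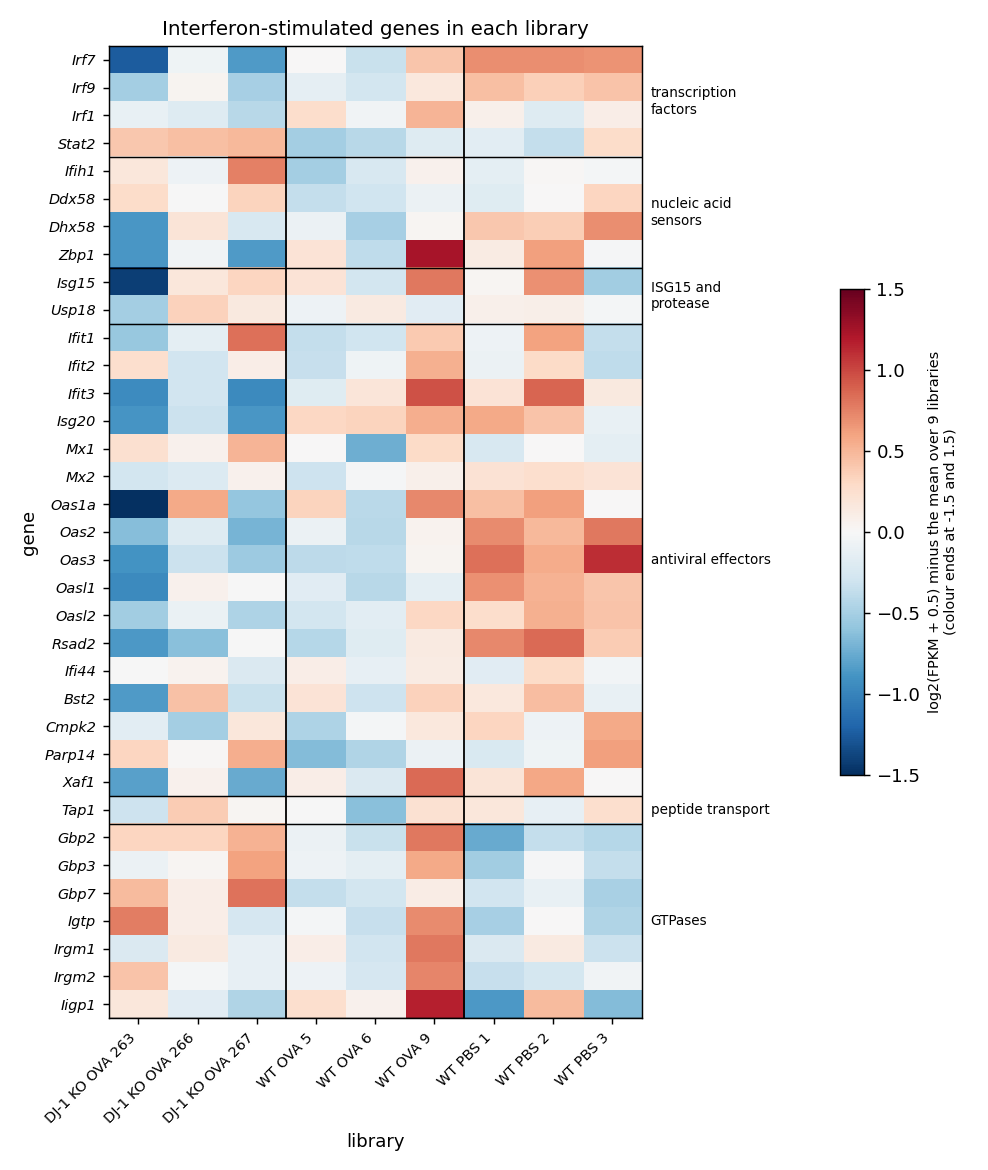
Heat map of the 35 members (rows, grouped by role) in the 9 libraries (columns, DJ-1 KO OVA, then WT OVA, then WT PBS); colour is log2(FPKM + 0.5) minus the mean of that gene over the 9 libraries. Several Oas family genes and Irf7 are high in the 3 WT PBS libraries, Stat2 is high in the 3 DJ-1 KO OVA libraries, and most of the GTPases at the bottom are high in WT OVA replicate 9.

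DJ-1 KO OVA was first set against WT OVA, which asks how the challenged lung differs when DJ-1 is lost. Stat2 was higher and Isg20 was lower in DJ-1 KO OVA, and no other member passed the test. These 2 of 35 members (5.71%) compare with 14.2% of all tested genes called in this comparison (adjusted p below 0.05, limma), 5.93% higher and 8.24% lower, so members were called at a lower share than genes in general. At an unadjusted p below 0.05 there were 10 members, 4 higher and 6 lower, against 35.2% of genes. Differences were negative in 23 members and positive in 12 (50% of genes were positive), and the median log2 difference was -0.08, beside 0.00 over all tested genes; after scaling every library to the same FPKM sum, 28 were positive, 7 were called higher and none lower (20%, against 28.4% of all genes, 25% higher and 3.4% lower). That scaling moved the median of all genes by 0.46 in this comparison, by -0.22 in WT OVA against WT PBS and by 0.24 in DJ-1 KO OVA against WT PBS.

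Among the 4 transcription factors, Stat2, which codes for a subunit of the complex that binds the ISRE, was at 5.45, 5.62 and 5.80 FPKM in the DJ-1 KO OVA libraries, against 2.66, 2.87 and 3.42 FPKM in WT OVA replicates 5, 6 and 9. The lowest knockout library lay above the highest wild-type one. The means were 5.62 ± 0.178 FPKM in DJ-1 KO OVA and 2.98 ± 0.397 FPKM in WT OVA (SD, n = 3 each), a 1.77-fold difference (log2 0.82, SE 0.20, adjusted p = 0.029, limma). The call held in 10 of 18 alternative settings, with adjusted p-values from 0.0151 to 0.106 (limma). It was lost without DJ1_KO_OVA_263 or DJ1_KO_OVA_267, without any 1 of the 3 WT OVA libraries, without WT PBS replicate 1, with no filter and after removing the trend with gene length, which lowered the log2 difference to 0.62 at a gene length of 5926 bases in the file.

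Irf7, which codes for a main activator of type I interferon genes, was at 7.75, 18.2 and 10.4 FPKM in DJ-1 KO OVA, against 19.1, 15.0 and 25.6 FPKM in WT OVA. The groups overlapped through DJ1_KO_OVA_266, and the log2 difference of -0.75 had an adjusted p of 0.101 (limma). Without DJ1_KO_OVA_266 it was -1.08 (adjusted p = 0.0105, limma). Irf1, an interferon-gamma-induced activator, was at 35.7, 33.8 and 28.9 FPKM in DJ-1 KO OVA, against 46.6, 37.3 and 55.3 FPKM in WT OVA. Its groups did not overlap, but the difference of -0.48 did not pass (adjusted p = 0.124, limma). Irf9, the DNA-binding subunit of the complex with STAT2, averaged 7.41 ± 1.81 FPKM in DJ-1 KO OVA and 8.76 ± 1.45 FPKM in WT OVA (SD, n = 3 each), a difference smaller than these SDs.

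None of the 4 nucleic acid sensors passed. Ddx58, which codes for the RNA sensor RIG-I, was at 5.37, 4.34 and 5.63 FPKM in DJ-1 KO OVA, against 3.29, 3.47 and 4.08 FPKM in WT OVA. Those groups did not overlap (log2 0.45, adjusted p = 0.132, limma). The other 3 sensors overlapped between the groups. Their log2 differences were 0.52 for Ifih1, the RNA sensor MDA5, then -0.12 for Dhx58, the regulator LGP2, and -0.95 for Zbp1, a sensor of Z-form nucleic acid. The Zbp1 value leaned on WT OVA replicate 9, which had 31.7 FPKM beside 15.3 and 9.96 FPKM in replicates 5 and 6.

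Of the 17 antiviral effectors, 1 passed, Isg20, which codes for an exonuclease that degrades RNA. It was at 13.1, 19.6 and 13.3 FPKM in DJ-1 KO OVA, against 30.7, 31.3 and 36.1 FPKM in WT OVA. All 3 knockout libraries lay below all 3 wild-type libraries, with DJ1_KO_OVA_266 the closest. The means were 15.3 ± 3.70 FPKM in DJ-1 KO OVA and 32.7 ± 2.96 FPKM in WT OVA (SD, n = 3 each), 2.13-fold lower (log2 -1.09, SE 0.24, adjusted p = 0.0211, limma). The call held in 12 of 18 alternative settings, with adjusted p-values from 0.00533 to 0.0883 (limma). It was lost after scaling to equal FPKM sums, without DJ1_KO_OVA_263 or DJ1_KO_OVA_267 and without any 1 of the 3 WT OVA libraries.

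Ifit3, a gene of the IFIT family, was at 3.996, 6.55 and 3.96 FPKM in DJ-1 KO OVA, against 7.11, 9.28 and 16.3 FPKM in WT OVA. Its groups did not overlap and its log2 difference was -1.05 (adjusted p = 0.054, limma). Reads of Ifit3 and its near copy Ifit3b may be split between them. Parp14, which codes for an ADP-ribosyltransferase, was at 5.11, 4.06 and 6.04 FPKM in DJ-1 KO OVA, against 2.36, 2.78 and 3.73 FPKM in WT OVA, again with no overlap (log2 0.69, adjusted p = 0.0904, limma). In all, 3 members lay wholly higher (Stat2, Ddx58 and Parp14) and 3 wholly lower (Isg20, Ifit3 and Irf1) in DJ-1 KO OVA, 8.57% of members each, whereas 18.4% of tested genes lay wholly higher and 18.8% wholly lower. The remaining effectors overlapped between the groups, from -0.80 for Oas1a to 0.42 for Mx1 on the log2 scale. Oas1a, which makes the 2-5A signal that activates RNase L, showed how unequal the knockout libraries were, with 7.21, 37.2 and 16.6 FPKM, against 31.7, 18.8 and 41.7 FPKM in WT OVA.

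The modifier Isg15 was at 36.8, 111 and 123.5 FPKM in DJ-1 KO OVA, against 114, 81.0 and 171 FPKM in WT OVA. DJ1_KO_OVA_263 was below the other 8 libraries, and the groups overlapped. Usp18, the protease that removes ISG15 from proteins, averaged 3.99 ± 1.27 FPKM in DJ-1 KO OVA and 3.77 ± 0.479 FPKM in WT OVA (SD, n = 3 each). Tap1, a subunit of the transporter that carries peptides to MHC class I, averaged 22.0 ± 5.37 FPKM in DJ-1 KO OVA and 19.7 ± 5.71 FPKM in WT OVA (SD, n = 3 each). None of the 7 GTPases passed, and all 7 overlapped between the groups. Gbp7, a guanylate-binding protein, came closest, at 3.93, 2.93 and 5.12 FPKM in DJ-1 KO OVA, against 1.995, 2.14 and 2.95 FPKM in WT OVA (log2 0.64, adjusted p = 0.0804, limma).

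The calls between the challenged groups depended on single libraries. Without DJ1_KO_OVA_266, 9 of 35 members were called (25.7%, against 32.1% of all genes), 3 higher and 6 lower. The 7 that joined Stat2 and Isg20 were Gbp7 and Parp14, higher, and Ifit3, Oas1a, Irf7, Zbp1 and Xaf1, lower. Without DJ1_KO_OVA_263 or DJ1_KO_OVA_267, or without any 1 WT OVA library, no member was called, while 1.61% to 6.76% of all genes were. Without WT PBS replicate 1 it was 1 member (2.86%, against 7.1% of all genes).

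**Figure D2:**
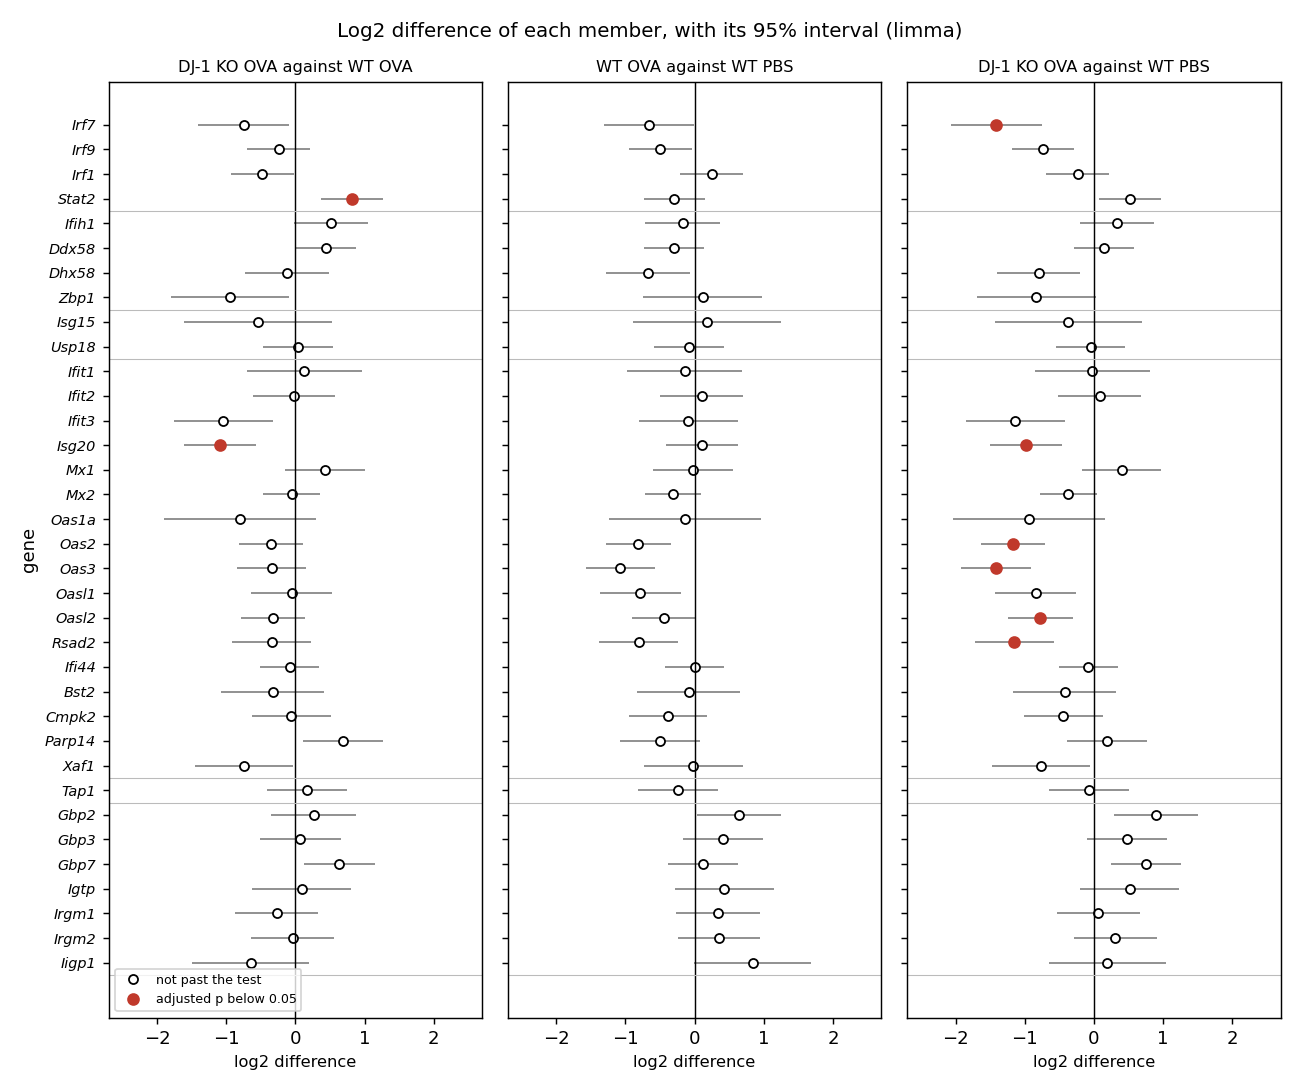
Log2 difference of each member (rows, grouped by role) in the 3 comparisons, as points with their 95% intervals from limma; filled red points have an adjusted p below 0.05. Stat2 and Isg20 are filled in the left panel, none in the middle panel, and Irf7, Isg20, Oas2, Oas3, Oasl2 and Rsad2 in the right panel, and the comparisons share libraries.

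WT OVA was then set against WT PBS, which asks what the allergen does in wild-type lung. None of the 35 members passed the test (limma), where 0.00564% of all tested genes, a single gene, did. With limma-voom on recovered reads 0 members were called, but that fit kept the library sizes behind the deposited FPKM and so cannot check that scaling. At an unadjusted p below 0.05 there were 8 members, 1 higher and 7 lower, with 6.47% of all genes at that level. The sign differed by role: 14 of 17 effectors had negative differences, whereas all 7 GTPases had positive ones. After scaling to equal FPKM sums, 1 GTPase (of 7) turned negative. The GTPase differences leaned on WT OVA replicate 9, the highest WT OVA library in all 7. The mean log2 value of the 7 GTPases was 3.15 in replicate 9, beside 2.41 and 2.23 in replicates 5 and 6. In WT PBS it was 1.95, 2.43 and 2.06, so WT OVA replicates 5 and 6 lay below WT PBS replicate 2. Over the 35 members 13 differences were positive (50.7% of genes were), and the median log2 difference was -0.09, beside 0.00 over all tested genes.

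In 8 members the WT OVA libraries lay wholly below the WT PBS libraries (22.9%, against 7.52% of tested genes), and in 1 member, Gbp2, wholly above (2.86%, against 7.25%). The 8 were Oas2, Oas3, Oasl1, Rsad2, Mx2, Irf7, Irf9 and Dhx58. Oas3, an oligoadenylate synthetase of the RNase L pathway, was at 3.15, 3.19 and 4.44 FPKM in WT OVA, against 8.03, 6.53 and 9.84 FPKM in WT PBS. Its log2 difference of -1.07 had an unadjusted p of 0.000701 and an adjusted p of 0.624 (limma). Oas2, a second enzyme of that family, was at 2.36, 1.78 and 2.65 FPKM in WT OVA, against 4.48, 3.75 and 4.75 FPKM in WT PBS (log2 -0.81, adjusted p = 0.721, limma). Rsad2, which codes for viperin, a radical-SAM enzyme that makes a chain-terminating nucleotide, was at 3.18, 3.88 and 4.96 FPKM in WT OVA, against 7.68, 8.46 and 5.94 FPKM in WT PBS (log2 -0.81, adjusted p = 0.729, limma). Each of these 3 genes was separated between the groups, yet none passed once adjusted over 17716 genes.

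Irf7 in WT PBS was nearly the same in every library, at 31.2, 31.2 and 30.6 FPKM, and all 3 WT OVA libraries, at 19.1, 15.0 and 25.6 FPKM, lay below it. Gbp2, the guanylate-binding protein whose groups separated upward, was at 17.2, 14.4 and 32.1 FPKM in WT OVA, against 10.6, 14.2 and 13.4 FPKM in WT PBS. The gap between the lowest WT OVA library and the highest WT PBS library was small (14.4 and 14.2 FPKM), and the log2 difference of 0.64 did not pass (adjusted p = 0.729, limma). Iigp1, an immunity-related GTPase, had the widest positive difference of the family, 0.84 on the log2 scale with a 95% interval of -0.01 to 1.68. Its values were 2.76, 2.37 and 5.65 FPKM in WT OVA, against 1.01, 3.31 and 1.25 FPKM in WT PBS, so the groups overlapped.

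DJ-1 KO OVA was last set against WT PBS, in which genotype and challenge differ together and cannot be told apart. The 3 comparisons share libraries, so their values are given side by side and not as support for each other. In DJ-1 KO OVA, 6 of 35 members were lower and 0 higher (17.1%, against 8.54% of all tested genes, with 4.47% called lower and 4.07% higher). At an unadjusted p below 0.05 there were 14 members, 3 higher and 11 lower, against 26.4% of genes. The 6 called members were the oligoadenylate synthetase family genes Oas2, Oas3 and Oasl2, the effectors Rsad2 and Isg20, and the factor Irf7. The members' median log2 difference was -0.23, beside 0.00 over all genes, with 22 negative and 13 positive (50% of genes were positive); after scaling to equal FPKM sums it was 0.06, with 17 negative and 18 positive, 2 members called lower and 1 higher (8.57%, against 7.9% of all genes).

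Oas3 had the widest difference, at 2.08, 3.34 and 2.78 FPKM in DJ-1 KO OVA, against 8.03, 6.53 and 9.84 FPKM in WT PBS. The groups were far apart, with means of 2.73 ± 0.628 FPKM in DJ-1 KO OVA and 8.13 ± 1.66 FPKM in WT PBS (SD, n = 3 each), 2.67-fold lower (log2 -1.42, SE 0.23, adjusted p = 0.00661, limma). It was called in 18 of 18 alternative settings, the single member of which that was true in any comparison. Oas2 was at 1.46, 2.17 and 1.38 FPKM in DJ-1 KO OVA, against 4.48, 3.75 and 4.75 FPKM in WT PBS, 2.25-fold lower (log2 -1.17, adjusted p = 0.0106, limma). That call was lost in 2 of 18 settings, scaling to equal FPKM sums and leaving out WT PBS replicate 1, with adjusted p-values up to 0.0519 (limma).

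Irf7 was at 7.75, 18.2 and 10.4 FPKM in DJ-1 KO OVA, against 31.2, 31.2 and 30.6 FPKM in WT PBS, 2.65-fold lower (log2 -1.41, adjusted p = 0.019, limma). Its groups were well separated, although the knockout libraries ranged widely, and the call was lost without DJ1_KO_OVA_267, without WT PBS replicate 1 or 2 and with no filter (4 of 18 settings, adjusted p up to 0.0769, limma). Reads of Irf7 may include some of Phrf1, which overlaps it on the other strand, since the strand setting of the counting is not given. Rsad2 was at 2.23, 2.71 and 4.44 FPKM in DJ-1 KO OVA, against 7.68, 8.46 and 5.94 FPKM in WT PBS, 2.22-fold lower (log2 -1.15, adjusted p = 0.0242, limma). It was called in 12 of 18 settings, not without DJ1_KO_OVA_263 or WT PBS replicate 1 or 2. The Rsad2 call was also lost with no filter, after scaling to equal FPKM sums and in a fit of the 2 groups alone.

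Isg20 was at 13.1, 19.6 and 13.3 FPKM in DJ-1 KO OVA, against 36.6, 33.2 and 22.8 FPKM in WT PBS, 1.98-fold lower (log2 -0.98, adjusted p = 0.0309, limma). Its highest knockout library and lowest saline library, 19.6 and 22.8 FPKM, were close, and the call held in 10 of 18 settings, not without DJ1_KO_OVA_263 or DJ1_KO_OVA_267, WT OVA replicate 5 or WT PBS replicate 1 or 2. Oasl2, an OAS-like protein with ubiquitin-like domains, was at 3.99, 5.49 and 4.16 FPKM in DJ-1 KO OVA, against 7.26, 8.80 and 8.16 FPKM in WT PBS. The groups did not overlap (1.71-fold lower, log2 -0.77, adjusted p = 0.0472, limma). This was the weakest of the 6 calls, held in 8 of 18 settings and lost without any 1 library other than DJ1_KO_OVA_266 and WT OVA replicate 9. The calls of both Isg20 and Oasl2 were also lost with no filter, after scaling to equal FPKM sums and in a fit of the 2 groups alone.

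Counting libraries alone, 12 members lay wholly lower in DJ-1 KO OVA than in WT PBS (34.3%, against 12.9% of tested genes) and 4 wholly higher (11.4%, against 12.7%). The 4 were Stat2, Mx1, Gbp2 and Gbp7. Gbp2 was at 22.96, 22.96 and 26.6 FPKM in DJ-1 KO OVA, against 10.6, 14.2 and 13.4 FPKM in WT PBS, a clear gap that did not pass (log2 0.90, adjusted p = 0.0707, limma). Irf9 was at 6.33, 9.49 and 6.39 FPKM in DJ-1 KO OVA, against 12.8, 12.0 and 12.6 FPKM in WT PBS, and lay just outside the threshold (log2 -0.74, adjusted p = 0.0511, limma), as did Ifit3 (log2 -1.14, adjusted p = 0.0554, limma). Without DJ1_KO_OVA_266 the count of called members was 13, of which 12 were lower (37.1% in all, against 22% of genes). Without WT PBS replicate 1 it was 1 member (2.86%, against 2.46% of genes) and without WT PBS replicate 2 it was 2 (5.71%, against 3% of genes). It was 3 members (8.57%) without DJ1_KO_OVA_263 or without DJ1_KO_OVA_267, where 7.25% and 2.74% of genes were called, so the share of all genes also fell in each of these fits.

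**Figure D3:**
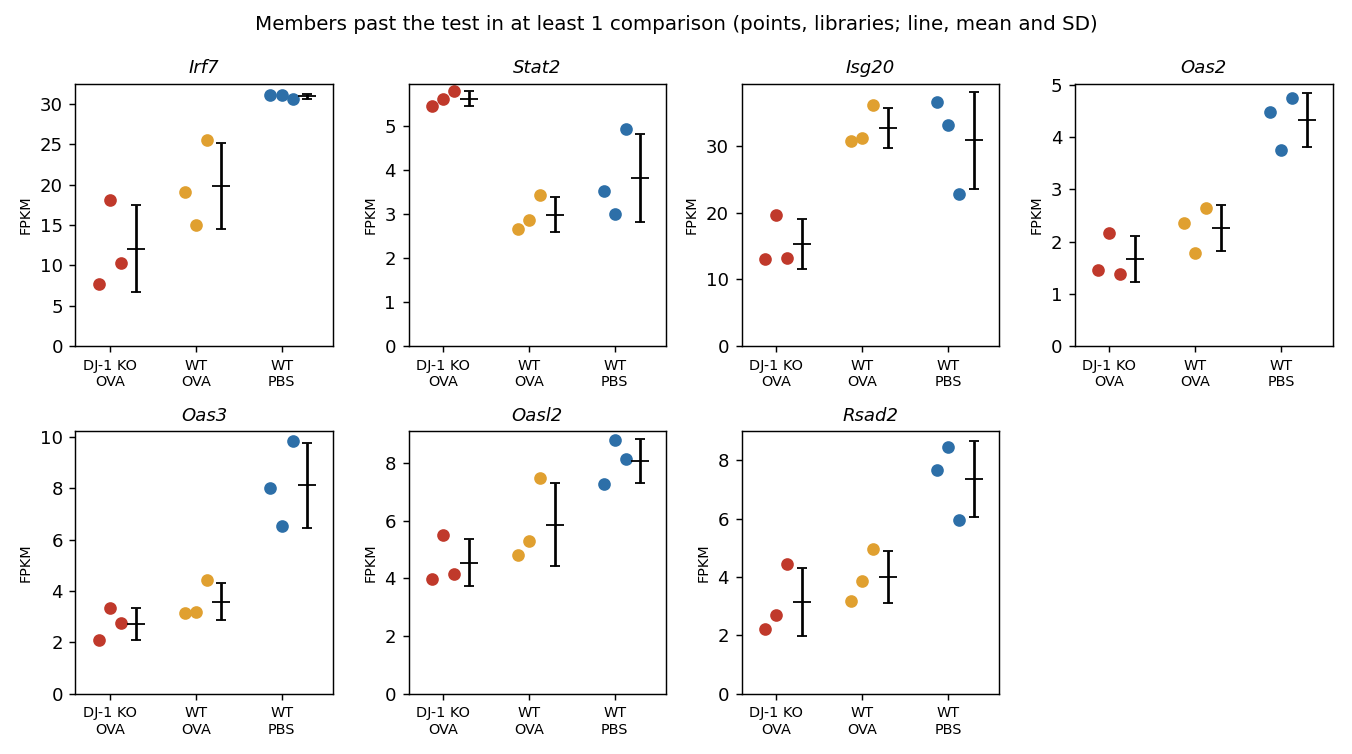
FPKM of the members past the test in at least 1 comparison, with each library as a point and the mean and SD of the 3 libraries as a black line, DJ-1 KO OVA left, WT OVA middle and WT PBS right. Stat2 sits between 5.45 and 5.80 FPKM in DJ-1 KO OVA, above all WT OVA points, while Oas3 sits between 2.08 and 3.34 FPKM in DJ-1 KO OVA, below the WT PBS points.

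The effectors, with Mx1 and Mx2 counted among them, and the GTPases were ordered differently over the groups. The mean log2(FPKM + 0.5) of the 17 effectors was 1.93, 2.38 and 2.29 in DJ-1 KO OVA, 2.33, 2.26 and 2.79 in WT OVA and 2.75, 2.90 and 2.69 in WT PBS. That of the 7 GTPases was 2.72, 2.52 and 2.59 in DJ-1 KO OVA, 2.41, 2.23 and 3.15 in WT OVA and 1.95, 2.43 and 2.06 in WT PBS. The 3 saline libraries were thus among the 4 highest for the effectors, whereas for the GTPases WT PBS replicates 1 and 3 were the lowest of the 9 libraries and WT PBS replicate 2 lay in the middle.

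Taken within each library, the GTPase mean minus the effector mean was 0.78, 0.14 and 0.30 in DJ-1 KO OVA, 0.09, -0.04 and 0.36 in WT OVA, and -0.79, -0.47 and -0.63 in WT PBS. The scaling between libraries cancels in this difference only in part, because 0.5 is added to every FPKM and effectors such as Ifi44 and Mx2 are near that level. Every saline library lay below every ovalbumin library of either genotype, and the challenged groups overlapped each other. This score over members chosen with results known is a description and has no test. Removing the trend with gene length left the values nearly as they were (0.76, 0.14 and 0.29 in DJ-1 KO OVA, 0.10, -0.03 and 0.38 in WT OVA, and -0.79, -0.46 and -0.64 in WT PBS), and the median gene length was 3690 bases for the GTPases and 3927 bases for the effectors. All 7 GTPases also had positive differences in DJ-1 KO OVA against WT PBS (median log2 difference 0.48; 1 of 7 turned negative once the length trend was removed), and none passed the test. Gbp genes outside these 7, which stand in a further list of interferon-induced genes, are not in this score, and not all of their means went this way. Gbp and immunity-related GTPase genes have close paralogs, and Igtp and Irgm2 overlap on the same strand, so reads may be split between family members.

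**Figure D4:**
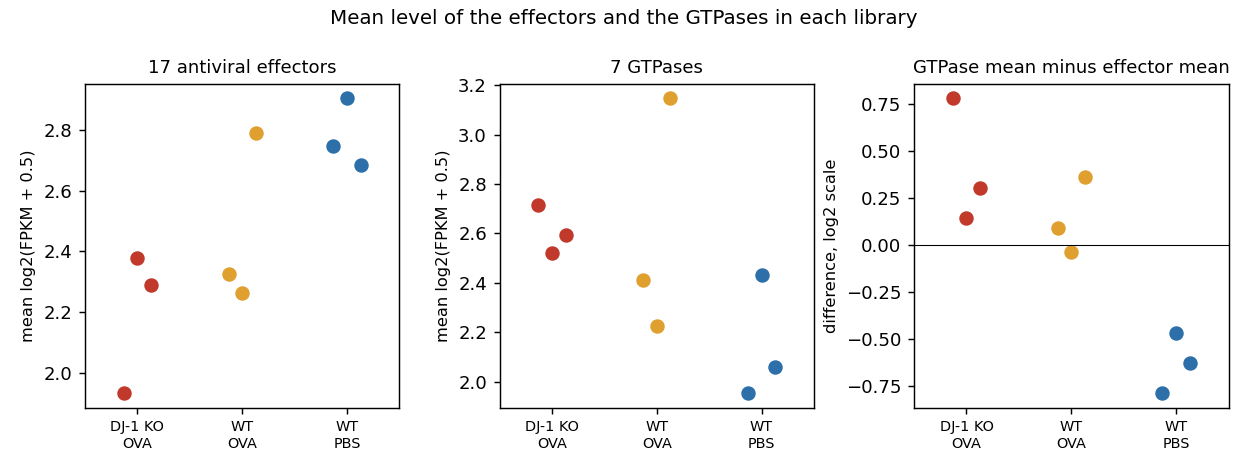
Mean log2(FPKM + 0.5) of the 17 antiviral effectors (left) and of the 7 GTPases (middle), and the GTPase mean minus the effector mean (right), with each library as a point. In the right panel the 3 WT PBS points lie between -0.79 and -0.47, below the DJ-1 KO OVA points (0.14 to 0.78) and the WT OVA points (-0.04 to 0.36).

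Single libraries stood out within their groups. WT OVA replicate 9 held the highest value of 11 of the 35 members, while it held the highest value of 15.3% of all tested genes. DJ1_KO_OVA_263 held the lowest value of 15 members, against 21.2% of all genes. Summed over the 35 members, FPKM was 315, 553.5 and 455 in DJ-1 KO OVA, 528, 410.0 and 717 in WT OVA and 545, 655 and 476.5 in WT PBS. These sums, carried largely by Bst2 and Isg15, overlapped between all 3 groups.

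The other genes of the pathway were read from lists of ligands, receptors, transducers, inhibitors and further induced genes. Of 21 interferon ligand genes, 18 were under the filter on low values, which left Ifnb1, Ifng and Ifna1. The interferon-beta gene Ifnb1 was at 3.33, 12.4 and 16.9 FPKM in DJ-1 KO OVA, 6.67, 3.61 and 7.59 FPKM in WT OVA and 1.37, 2.66 and 1.39 FPKM in WT PBS. Both challenged groups lay wholly above the saline group and overlapped each other. DJ-1 KO OVA against WT PBS passed (log2 2.09, SE 0.50, adjusted p = 0.0312, limma), in 11 of 18 settings and not without DJ1_KO_OVA_267, WT OVA replicate 5 or any 1 of the 3 WT PBS libraries. That call was also lost with no filter and in a fit of the 2 groups alone. WT OVA against WT PBS did not (log2 1.47, adjusted p = 0.729, limma). Only 22 to 41 reads per library stood behind the saline values. Ifng, which codes for interferon-gamma, was at 6.71, 1.504 and 5.11 FPKM in DJ-1 KO OVA, 1.85, 3.07 and 4.01 FPKM in WT OVA and 1.92, 4.36 and 1.96 FPKM in WT PBS, and passed in no comparison.

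None of the 6 receptor genes (Ifnar1, Ifnar2, Ifngr1, Ifngr2, Ifnlr1 and Il10rb) passed in any of the 3 comparisons. The shares of all tested genes called were 14.2% (DJ-1 KO OVA against WT OVA), 0.00564% (WT OVA against WT PBS) and 8.54% (DJ-1 KO OVA against WT PBS). Among 4 transducers (Jak1, Jak2, Tyk2 and Stat3), the kinase gene Jak2 was higher in DJ-1 KO OVA, at 24.96, 21.4 and 40.2 FPKM, against 11.3, 9.90 and 11.2 FPKM in WT OVA and 9.91, 11.04 and 13.3 FPKM in WT PBS. Its lowest knockout library lay above all 6 wild-type ones, and it passed against WT OVA (log2 1.33, adjusted p = 0.0124, limma; lost without WT OVA replicate 6) and against WT PBS (log2 1.26, adjusted p = 0.0133, limma; lost without WT PBS replicate 1 or 2). Jak1 was at 56.9, 33.1 and 54.5 FPKM in DJ-1 KO OVA, against 22.5, 25.7 and 29.5 FPKM in WT OVA (log2 0.85, adjusted p = 0.0456, limma), a call held in 8 of 18 settings and lost without any 1 library other than DJ1_KO_OVA_266 and WT PBS replicate 3. The Jak1 call was also lost with no filter, in a fit of the 2 groups alone and after removing the trend with gene length (7227 bases for Jak1).

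Of 7 inhibitors of interferon signalling, Socs1, which blocks JAK kinases, was higher in DJ-1 KO OVA, at 8.86, 12.3 and 5.62 FPKM, against 4.48, 3.03 and 4.62 FPKM in WT OVA. The groups did not overlap (log2 1.01, adjusted p = 0.0365, limma), and the call was lost without DJ1_KO_OVA_263, any 1 WT OVA library or WT PBS replicate 1. It was also lost with no filter and in a fit of the 2 groups alone. None of 11 tested genes of sensing upstream of interferon and none of 12 MHC class I pathway genes passed in any comparison. Of all tested genes, 14.2% were called in DJ-1 KO OVA against WT OVA, 0.00564% in WT OVA against WT PBS and 8.54% in DJ-1 KO OVA against WT PBS.

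A further list of interferon-induced genes had 37 tested of 41, of which 3 were lower and 0 higher in DJ-1 KO OVA against WT OVA (8.11%, with 14.2% of all tested genes called). Rtp4, which codes for a transmembrane chaperone, was at 4.58, 12.7 and 5.18 FPKM in DJ-1 KO OVA, against 18.0, 17.9 and 32.1 FPKM in WT OVA (log2 -1.62, adjusted p = 0.028, limma). Ifi27l2a was at 87.2, 298 and 137 FPKM in DJ-1 KO OVA, against 419, 338 and 768 FPKM in WT OVA (log2 -1.64, adjusted p = 0.0469, limma), and Ifi209, a gene of the PYHIN family, averaged 5.90 ± 1.501 FPKM in DJ-1 KO OVA and 13.2 ± 4.51 FPKM in WT OVA (SD, n = 3 each). In all 3 genes DJ1_KO_OVA_266 was the knockout library nearest to WT OVA. The calls of Rtp4, Ifi27l2a and Ifi209 held in 11, 5 and 9 of 18 settings, and each was lost without DJ1_KO_OVA_263 or DJ1_KO_OVA_267 or any 1 WT OVA library; Ifi209 was also lost without WT PBS replicate 1 and Ifi27l2a without any 1 WT PBS library. All 3 calls were lost with no filter and in a fit of the 2 groups alone. Scaling to equal FPKM sums lost Ifi209 and Ifi27l2a, and quantile normalization or removing the trend with gene length lost Ifi27l2a. Against WT PBS, 5 of 37 were lower and 0 higher (13.5%, with 8.54% of all tested genes called), these 3 with Ifit3b (log2 -1.44, adjusted p = 0.0198, limma) and Ddx60, an RNA helicase gene (log2 -0.78, adjusted p = 0.0417, limma). The calls of Rtp4 and Ifit3b against WT PBS were lost without DJ1_KO_OVA_267 or WT PBS replicate 1 or 2. The calls of Ifi27l2a, Ifi209 and Ddx60 were lost without DJ1_KO_OVA_263, DJ1_KO_OVA_267 or WT PBS replicate 1 or 2. The loss also followed leaving out WT PBS replicate 3 (Ifi27l2a and Ifi209), WT OVA replicate 5 (Ifi27l2a and Ddx60), WT OVA replicate 6 (Ifi209 and Ddx60) or WT OVA replicate 9 (Ddx60). With no filter all 5 calls against WT PBS were lost. A fit of the 2 groups alone lost Ifi27l2a, Ifi209 and Ddx60, and scaling to equal FPKM sums lost Ifi209 and Ddx60. None of the 37 passed in WT OVA against WT PBS, with 5 at an unadjusted p below 0.05 (6.47% of all genes were).

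**Figure D5:**
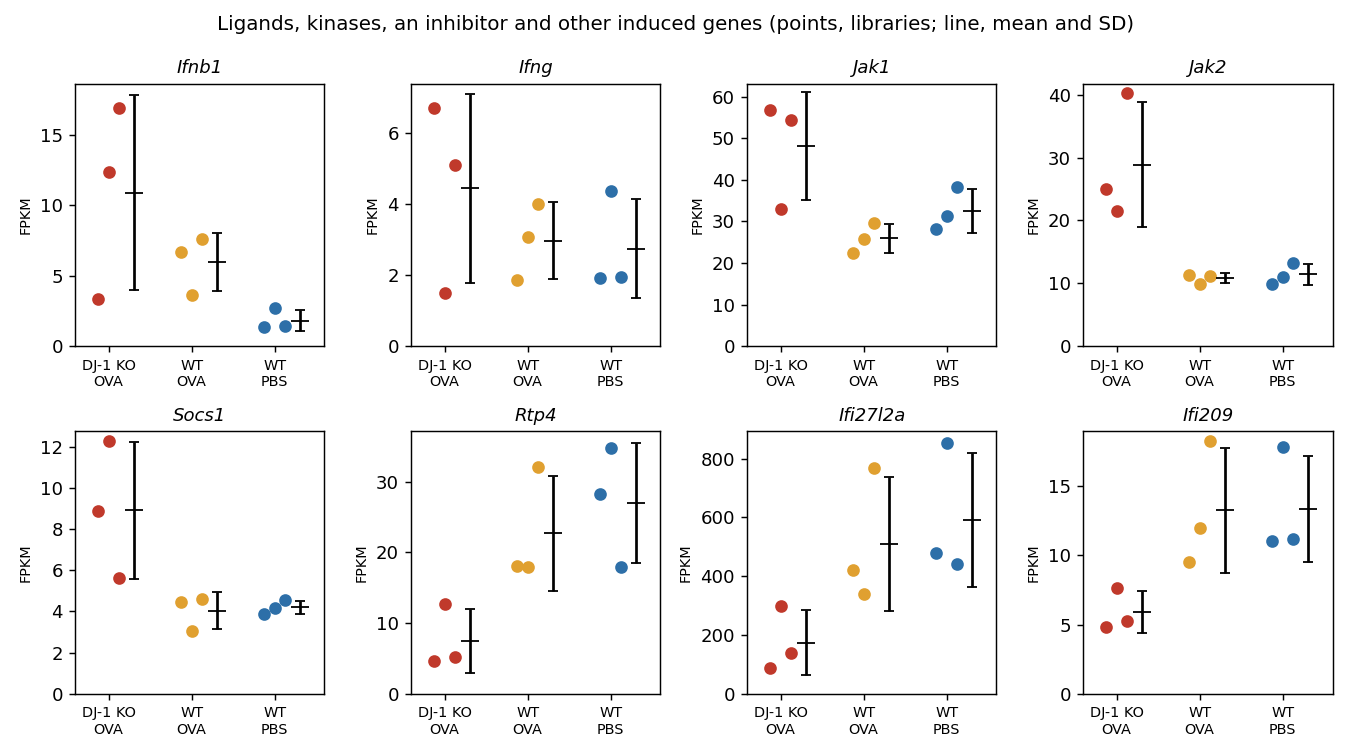
FPKM of 2 interferon ligand genes, 2 kinase genes, an inhibitor and 3 further induced genes, with each library as a point and the mean and SD of the 3 libraries as a black line. Ifnb1 is lowest in WT PBS (1.37 to 2.66 FPKM), Jak2 is highest in DJ-1 KO OVA (21.4 to 40.2 FPKM), and Rtp4 is lowest in DJ-1 KO OVA (4.58 to 12.7 FPKM).

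Markers of many cell types shifted beside these genes. Their calls stand beside 14.2% of all tested genes called in DJ-1 KO OVA against WT OVA (8.24% lower, 5.93% higher). Against WT PBS the share was 8.54% (4.47% lower, 4.07% higher). The summed FPKM of 9 neutrophil markers was 1429 to 4424 in DJ-1 KO OVA, 13083 to 19316 in WT OVA and 8601 to 24736 in WT PBS, and 7 of the 9 were called lower in DJ-1 KO OVA against WT OVA and 8 against WT PBS. The 8 monocyte markers summed to 404 to 460.1 FPKM in DJ-1 KO OVA, 579 to 641 FPKM in WT OVA and 701 to 1393 FPKM in WT PBS, with 2 called lower against WT OVA and 4 against WT PBS. The 6 plasmacytoid dendritic cell markers summed to 49.9 to 163 FPKM in DJ-1 KO OVA, 206 to 295 FPKM in WT OVA and 186 to 247 FPKM in WT PBS, with 1 called lower in each. By sign, 4 were negative and 2 positive against WT OVA, and 5 and 1 against WT PBS. The 9 T cell markers summed to 152 to 538 FPKM in DJ-1 KO OVA, the highest in DJ1_KO_OVA_263, 94.4 to 147 FPKM in WT OVA and 98.45 to 146 FPKM in WT PBS, with 4 called higher against WT OVA and 3 against WT PBS. The 8 alveolar macrophage markers summed to 10866 to 33726 FPKM in DJ-1 KO OVA, 3094 to 13706 FPKM in WT OVA and 2102 to 3211 FPKM in WT PBS, with 1 called higher and 1 lower against WT OVA and 2 higher and 1 lower against WT PBS. The markers of this list did not move together. By sign, 3 were positive and 5 negative against WT OVA (median log2 difference -0.06), and 6 and 2 against WT PBS (0.54). Against WT OVA, 3 of 7 B cell markers, 3 of 5 tested alveolar type 1 markers and 2 of 7 alveolar type 2 markers were also called lower in DJ-1 KO OVA, and 4 of 7 fibroblast markers higher. No marker of the 14 cell type lists was called in WT OVA against WT PBS, where 0.00564% of all tested genes, a single gene, passed. No marker gene was at 0 in all libraries. In bulk RNA, fewer cells of a type and less RNA per cell cannot be told apart, and the part of these shifts in the members' values was not tested.

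Gene length also moved with the values. Between DJ-1 KO OVA and WT OVA, the median log2 difference of all genes was -0.39, -0.16, 0.08 and 0.35 in 4 equal classes of genes from the shortest to the longest. The members' medians in those classes were -0.44 (2 members), -0.01 (10), -0.26 (16) and 0.45 (7). The 3 members that lay wholly higher in that comparison, Stat2, Ddx58 and Parp14, at 5926, 7050 and 9306 bases, were in the longest class, which starts at 5856 bases. With the trend removed, no member was called higher in DJ-1 KO OVA against WT OVA. In WT OVA against WT PBS the order of all genes was the other way, at 0.19, 0.07, -0.04 and -0.11, and Oas3, with 7069 bases, was also in the longest class.

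Of the members with a RefSeq promoter, the 16 members with the ISRE letters had a median log2 difference of 0.01 in DJ-1 KO OVA against WT OVA, and the 11 without them -0.24. In WT OVA against WT PBS the medians were -0.09 and -0.24, and in DJ-1 KO OVA against WT PBS 0.11 and -0.74. All 6 GTPases with a RefSeq promoter were among the 16 members with the letters. The split by letters thus overlaps the split by role, and the part of each in these medians was not tested. Of the members called lower in DJ-1 KO OVA against WT PBS that had a RefSeq promoter, Oas3 and Rsad2 held the letters, and Irf7, Isg20 and Oasl2 did not within this window. Stat2, Gbp7 and Ifit3 carry the same 10 letters TTTCAGTTTC in the sequences printed above, and Ifit3 also holds TTTCACTTTC. Between the challenged groups the differences of Stat2 and Gbp7 were positive (log2 0.82 and 0.64) and that of Ifit3 was negative (log2 -1.05), and of these only Stat2 passed the test. These are descriptions of letters in a window of 300 bases.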

How the data were processed

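Bulk RNA-seq of total lung cells was deposited for 9 libraries, 3 in each of DJ-1 KO OVA, WT OVA and WT PBS, grouped by their titles. The deposited table holds FPKM for 55851 genes with gene lengths, per the file headers. Per the labels' protocols, RNA was extracted with TRIzol and an Illumina TruSeq RNA kit was used for libraries. Trimmomatic, HISAT2, HTSeq and GRCm38.p6 are named in the submitters' processing notes; the sources used here give no versions, roles or strand setting. FPKM times gene length was a whole number of reads for 100% of values (tolerance 0.01), which gave the depth.

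Here log2(FPKM + 0.5) was fitted for the 17716 genes with a mean of at least 0.2 FPKM, in 1 limma-trend model over the 3 groups (limma 3.58.1, R 4.3.3, 6 residual degrees of freedom), with Benjamini-Hochberg adjustment over all of them. A gene was called at an adjusted p below 0.05, two-sided. Differences are on the log2(FPKM + 0.5) scale, folds are back-transformed from them, and both understate changes of low genes. Means with SD are in FPKM, so a fold need not equal the ratio of the means. An exact permutation test of 3 against 3 libraries cannot go below 0.1. Scripts were tested on simulated data. No pair of libraries held identical values. Alternatives, 18 in all, changed the pseudocount, filter, scaling and model and left out each library; the removal of the trend with gene length was chosen after seeing the data. The members and gene lists were chosen with earlier results of these data known. Named genes were the 35 members, genes of the other lists that were called, the ligands, receptors and transducers, and Park7. A withheld result is not reported here. The 13 members that overlap another gene, 8 of them on the opposite strand, are uncertain for reads of that gene.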

Additional observations from a re-analysis of the deposited data

How the results depend on the processing

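No paired analysis was possible because the groups share no replicate numbers. No member changed direction and kept a call under any of the 18 alternatives, and the recovered reads were tested with limma-voom only, with no negative binomial model run on them. The limma-voom fit used the library sizes behind the deposited FPKM and not the read totals, so it does not check the deposited scaling. The results below changed, and the cause was not tested unless stated.

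Between DJ-1 KO OVA and WT OVA, where 2 members were called (1 higher, 1 lower, median -0.08), no filter gave 1 (0 higher) over 30389 tested genes. A filter at 1 FPKM, quantile normalization and limma-voom each gave 2 lower. Equal FPKM sums gave 7 called, 7 higher and 0 lower, with a median of 0.34. Removing the length trend gave 1 called, 0 higher. Leaving out 1 library gave 0 to 9 called, 0 to 3 higher and 0 to 6 lower, with 1.61% to 32.1% of all genes called. For WT OVA against WT PBS, no setting called a member, and equal FPKM sums moved the median of -0.09 to -0.40. Leaving out 1 library gave medians of -0.24 to -0.01 between the challenged groups, -0.37 to -0.11 between DJ-1 KO OVA and WT PBS, and -0.33 (without WT OVA replicate 9) to 0.05 (without WT PBS replicate 2) for WT OVA against WT PBS, where it was 0.01 without WT OVA replicate 6.

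Between DJ-1 KO OVA and WT PBS (6 called, 0 higher, 6 lower, median -0.23), no filter gave 2 called, 2 lower. Equal FPKM sums gave 3 called, 1 higher and 2 lower, with a median of 0.06. Quantile normalization, limma-voom and removing the length trend each called 1 higher. A fit of these 2 groups alone, with fewer samples, gave 3 called, 3 lower. Leaving out 1 library gave 1 to 13 called, 0 to 1 higher and 1 to 12 lower.

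Over single genes and alternatives, 135 values lost a call, 43 gained one, 112 stayed uncalled but moved by more than their standard error, 2080 did none of these, and no called value changed sign. Few reads stood behind the members Mx2 (29 to 91 per library) and Ifi44 (38 to 82), the saline values of Ifnb1, and Ifna1 (0 to 10).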
